A study of Homo sapiens with 30 samples.

Results

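PTMA and HNRNPA3 are protein-coding genes that have left many intron-free copies in the human genome. Their run-on counts were followed beside those of 3 of these copies, PTMAP2, PTMAP5 and HNRNPA3P5, so that 5 of the 58780 genes of the count table are described. The members were taken from the table by gene name, and PTMAP2, whose name cell is empty there, by the GENCODE 29 name of its identifier. The copies were selected on measured values, for their falls against untreated cells after 7 days of inhibitor. From the lowest log2 fold change upwards, PTMAP2 stood at rank 54 with GSK591, and PTMAP2, PTMAP5 and HNRNPA3P5 stood at ranks 63, 47 and 31 with MS023, among the genes tested. Values against untreated cells are therefore given below as a description with no test, and tests use libraries that had no part in that choice. All 5 genes passed the filter on low counts that left 22919 genes for testing.

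The data are precision run-on sequencing (PRO-seq) libraries of A549, a human lung adenocarcinoma cell line, in which engaged RNA polymerases extend their transcripts with labelled nucleotides in permeabilised cells. There were 30 libraries in 15 groups of 2 replicates, and 0.01% DMSO was present in all of them. One group was untreated, 2 received dexamethasone (Dex, a synthetic glucocorticoid, 100 nM) for 15 min or 3 h, and 2 received Dex for 3 h together with GSK591 (1 µM, an inhibitor of the arginine methyltransferase PRMT5) or MS023 (1 µM, an inhibitor of type I arginine methyltransferases). Each inhibitor was also given alone for 2, 4 or 7 days, and for 7 days with Dex added at the end, for either 15 min or 3 h. The untreated samples are titled 15 min, and no group with 2, 4 or 7 days of DMSO alone is labelled. Where these days of inhibitor are set against untreated cells or Dex alone, inhibitor and time in culture therefore cannot be told apart. The labels number 2 replicates per group and do not say whether they were separate cultures, so p-values measure the spread between these samples, which may be technical.

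PTMA encodes prothymosin alpha, a small and very acidic nuclear protein that binds histones and is abundant in dividing cells. HNRNPA3 encodes an RNA-binding protein of the hnRNP A/B family, whose members take part in splicing and transport of mRNA and carry arginines that are methylated by arginine methyltransferases. A processed pseudogene arises when a spliced mRNA is copied into DNA and inserted elsewhere, so that it lacks introns and usually the promoter of its parent, and short reads from identical stretches of parent and copy cannot be told apart.

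PTMA (ENSG00000187514.16, GRCh38, chromosome 2, 231706895 to 231713541, plus strand) has 8 exonic segments with 3378 exonic bases, which overlap the annotated small RNAs MIR1244-1 and RF00015 on the same strand. PTMAP2 (ENSG00000197744.5, chromosome 5, 118973796 to 118974122, plus strand) is a single segment of 327 bases inside the gene DTWD2, which lies on the minus strand and has no exon there. PTMAP5 (ENSG00000214182.5, chromosome 13, 81689911 to 81691072, plus strand) covers 1162 bases and is annotated as a transcribed processed pseudogene. HNRNPA3 (ENSG00000170144.20, chromosome 2, 177212563 to 177223958, plus strand) has 10 exonic segments with 6033 bases, which overlap MIR4444-1 on the same strand and AC079305.3 on the opposite strand. HNRNPA3P5 (chromosome 13, 65787932 to 65788764, minus strand) is a single segment of 833 bases. The use of strand in the authors' counting is not given in the sources used here, so counts where genes overlap are uncertain.

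The copies were aligned to the coding part of their parents' transcripts from GENCODE 29, with positions counted from 1 at the A of the parent's start codon. PTMAP2 was 98.18% identical to PTMA over 330 aligned columns, with 3 substitutions (A52C, C159T and T250A) and 3 gap columns, and it ran across 4 exon junctions of the parent without a break. PTMAP5 was 97.9% identical over 333 columns, with 7 substitutions (A22G, C41T, G141A, A149G, G153A, C159T and G253C) and no gap, also across 4 junctions. HNRNPA3P5 matched positions 309 to 1137 of HNRNPA3 at 97.48%, with 18 substitutions and 3 gap columns, across 7 junctions. The stretch from 70 to 159 is shown for PTMA and its copies because it spans the junction after base 117 and holds substitutions shared and not shared by the copies. Capitals mark bases that differ from the parent.
PTMA: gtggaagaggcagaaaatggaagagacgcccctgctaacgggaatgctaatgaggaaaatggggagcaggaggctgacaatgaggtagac
PTMAP2: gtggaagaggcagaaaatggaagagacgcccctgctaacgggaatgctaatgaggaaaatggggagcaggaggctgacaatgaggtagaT
PTMAP5: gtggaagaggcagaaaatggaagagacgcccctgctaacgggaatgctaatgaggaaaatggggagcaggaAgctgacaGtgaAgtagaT

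The stretch from 745 to 834 is shown for HNRNPA3 and its copy because it spans the junction after base 820 and is the first window of this length with the most differences, 6 in the 90 bases printed.
HNRNPA3: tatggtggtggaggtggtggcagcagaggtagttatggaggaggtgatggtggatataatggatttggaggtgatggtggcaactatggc
HNRNPA3P5: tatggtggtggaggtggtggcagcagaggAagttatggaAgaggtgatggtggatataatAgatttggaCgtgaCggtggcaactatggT

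In these windows PTMAP2 differs from PTMA at 1 base and PTMAP5 at 4, and the substitution C159T is common to both copies. Split into all overlapping stretches of 50 bases, 33.09% of PTMAP2, 44.01% of PTMAP5 and 33.8% of HNRNPA3P5 occur unchanged in transcripts of the parent. For PTMAP5 this share is over the annotated pseudogene transcript of 333 bases, not over the 1162 bases on which reads were counted, for which no share was computed. Read the other way, 33.87% of the 50-base stretches of the PTMA transcript and 46.04% of those of the HNRNPA3 transcript occur in one of the parent's named copies. At 75 bases the shares of the copies fell to 15.02%, 19.31% and 17.39%. The read length and the handling of reads with several positions are not given in the sources used here, so all copy counts are uncertain by an amount that cannot be told from the table.

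Total counts ran from 8441211 to 13069598 per library, of which mitochondrial genes took 58.7% to 78.7%, leaving 1940760 to 3531632 counts on nuclear genes. Levels below are CPM, counts relative to library size after TMM scaling and multiplied to a common total. A549 markers were present, with medians of 223 CPM for KRT8 and 165 for AKR1C2, while CDKN2A, deleted in this line, had at most 3 counts and PTPRC, a leukocyte marker, a median of 0.0735 CPM. PECAM1, an endothelial marker, had a median of 0.45 CPM. COL1A1, a fibroblast collagen gene, had counts in all libraries at 2.41 to 8.24 CPM (median 3.93), above the epithelial markers EPCAM and CDH1 with medians of 2.34 and 2.64 CPM. Processed pseudogenes outside these families took 1.08% to 2.00% of nuclear counts, and the highest shares were those of MS023 with Dex replicate 2 (2.00%), Dex 15 min replicate 2 (1.5%) and GSK591 then Dex 15 min replicate 2 (1.41%). MS023 with Dex replicate 2 stands apart from its partner, so its values are given separately below. In bulk cultures fewer transcribing cells and less RNA per cell cannot be told apart.

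Per exonic kilobase and averaged over all libraries, the level of PTMA was 19.4 CPM and that of PTMAP2 nearly the same, at 18.2. PTMAP5 stood lower at 7.43 CPM per kilobase. HNRNPA3 had 5.08 CPM per kilobase, and its copies HNRNPA3P5 (7.04) and HNRNPA3P6 (8.82) lay above it. These averages hide an order that changed between groups. With Dex 15 min alone PTMA had 23.5 and PTMAP2 38.6 CPM per kilobase, against 13.3 and 3.69 after 7 days of MS023 then Dex 15 min. In the same groups HNRNPA3 had 7.16 and HNRNPA3P5 12.7, against 4.02 and 2.61. In raw counts PTMA had between 301 and 1532 per library (median 656), PTMAP2 between 8 and 283 (median 43.5), and PTMAP5 between 15 and 380 (median 69). HNRNPA3 had between 169 and 560 (median 304), and HNRNPA3P5 between 14 and 163 (median 40.5). The highest count of PTMA, PTMAP2, PTMAP5 and HNRNPA3 was in the same library, MS023 with Dex replicate 2. HNRNPA3P5 had its highest count of 163 there and in untreated replicate 1.

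**Figure D1:**
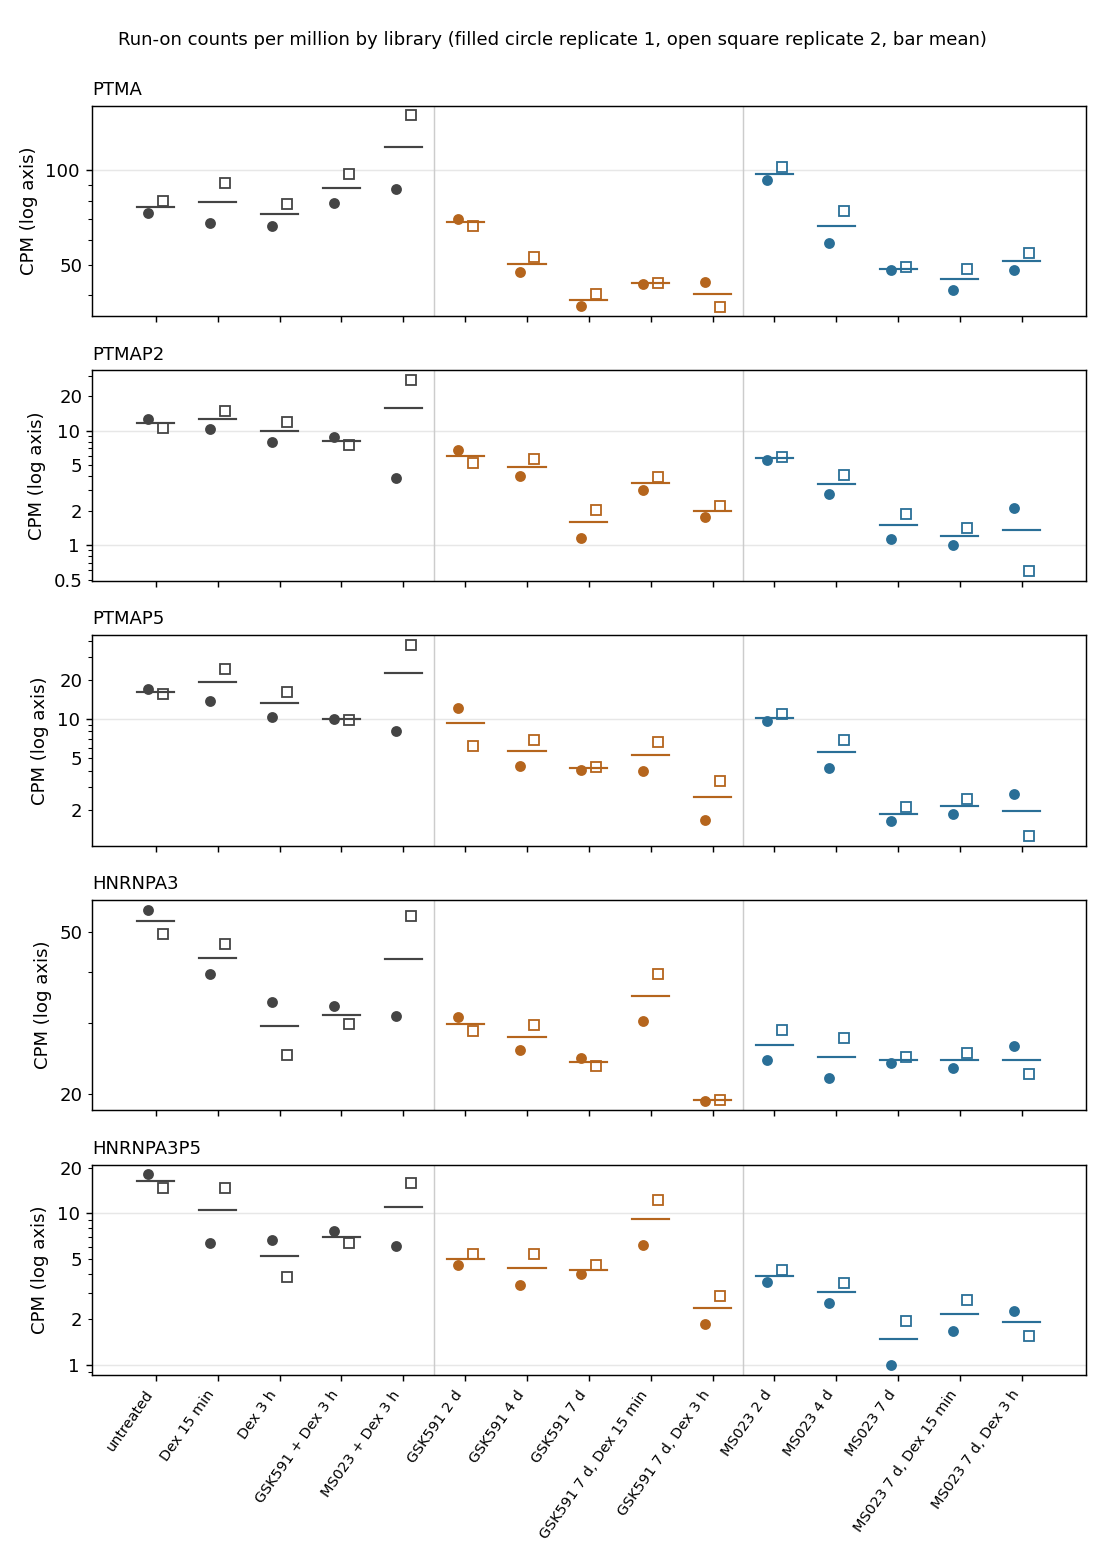
CPM (log axis) of the 5 genes in each library, by group, with filled circles for replicate 1, open squares for replicate 2 and bars for the group mean. The copies drop further than the parents along both inhibitor series, and MS023 with Dex replicate 2 lies far above replicate 1 for PTMAP2 (27.7 against 3.83 CPM). Unlike the parents, the copies were chosen for falls at 7 days, so their larger drop can follow from that choice.

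The parents moved moderately along the inhibitor series. PTMA stood at 73.1 and 79.6 CPM in the untreated libraries, 70.2 and 66.4 after GSK591 for 2 days, 47.2 and 53.0 for 4 days and 37.0 and 40.3 for 7 days. MS023 gave PTMA levels of 93.3 and 102 CPM (2 days), 58.8 and 74.0 (4 days) and 48.2 and 49.1 (7 days). PTMA was thus above both untreated libraries at 2 days of MS023 and below both at 7 days of either inhibitor. Its log2 fold changes against untreated cells were 0.36 (SE 0.198) at 2 days and -0.65 (SE 0.201) at 7 days of MS023, and -0.98 (SE 0.210) at 7 days of GSK591. HNRNPA3 went from 56.8 and 49.6 CPM in untreated cells to 31.1 and 28.6 (GSK591) and 24.2 and 28.7 (MS023) after 2 days. At 7 days it stood at 24.5 and 23.5 CPM with GSK591 and 23.9 and 24.7 with MS023. HNRNPA3 was thus below both untreated libraries from 2 days on, with log2 fold changes of -0.83 (SE 0.200) and -1.0 (SE 0.198), beside -1.15 (SE 0.204) and -1.13 (SE 0.195) at 7 days. Scaled by total counts alone, the value for PTMA at 7 days of MS023 turned to 0.36 and that of HNRNPA3 to -0.11, in a scaling that moved the median of all genes in that comparison to 1.02. In that scaling HNRNPA3 with GSK591 had -0.54 at 2 days and -1.16 at 7 days, where the all-gene medians were 0.29 and -0.03.

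The copies were lower by more. PTMAP2 stood at 12.7 and 10.6 CPM in untreated cells, and at 6.72 and 5.17 (2 days), 4.03 and 5.62 (4 days) and 1.16 and 2.01 (7 days) with GSK591. MS023 gave PTMAP2 levels of 5.57 and 5.91 CPM (2 days), 2.77 and 4.06 (4 days) and 1.13 and 1.88 (7 days). All 12 of these treated libraries lay below both untreated ones, including those at 7 days which, with the untreated ones, chose PTMAP2. For these libraries the separation was thus part of the choice. The share of all genes separated likewise from untreated cells was not computed, here or for the parents above. PTMAP5 went from 16.9 and 15.4 CPM to 4.07 and 4.29 at 7 days of GSK591 and to 1.63 and 2.10 after MS023 for 7 days. HNRNPA3P5 went from 18.1 and 14.8 CPM to 4.57 and 5.40 (2 days) and 3.95 and 4.56 (7 days) with GSK591, and to 3.52 and 4.25 (2 days) and 0.992 and 1.95 (7 days) with MS023. Its level with GSK591 thus hardly moved after 2 days, whereas with MS023 it was lower at 7 days than at 2. The log2 fold changes at 7 days, which chose the copies, were -2.89 (PTMAP2), -1.95 (PTMAP5) and -1.95 (HNRNPA3P5) with GSK591 and -2.94, -3.11 and -3.47 with MS023. The same untreated libraries serve both inhibitors.

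Ordered by the mean over their 15 groups, the levels formed gradients with few clear steps. The replicate ranges of neighbouring groups did not overlap in 1 of 14 neighbouring pairs for PTMA, 3 for PTMAP2, 1 for PTMAP5, 2 for HNRNPA3 and 1 for HNRNPA3P5. PTMA was highest in MS023 with Dex 3 h (118 ± 44.4 CPM, SD, n = 2), then at 2 days of MS023 (97.7 ± 6.29), and lowest at 7 days of GSK591 (38.7 ± 2.38). Its step lay between 4 days of MS023 and 7 days of MS023 followed by Dex 3 h. PTMAP2 and PTMAP5 had their 5 and 4 highest means in groups without prolonged inhibitor, and their 3 lowest means in the 3 groups with 7 days of MS023. HNRNPA3 was highest in untreated cells (53.2 ± 5.14 CPM) and lowest after GSK591 then Dex 3 h (19.3 ± 0.0519). HNRNPA3P5 was also highest in untreated cells (16.5 ± 2.35 CPM), and its 3 lowest means were those of the groups with 7 days of MS023.

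Dex alone was compared between 3 h and 15 min, in libraries that share nothing with the choice of the copies. In this comparison 0 of the 5 genes were called at an adjusted p of 0.05 by the edgeR quasi-likelihood test, beside 10.8% of all genes in either direction, and DESeq2 also called 0. HNRNPA3 was at 33.7 and 25.0 CPM at 3 h and 39.6 and 46.8 at 15 min, and was the only one of the 5 with an unadjusted p below 0.05 (log2 fold change -0.55, SE 0.200, edgeR adjusted p = 0.0872). HNRNPA3P5 was at 6.70 and 3.79 CPM at 3 h and 6.42 and 14.8 at 15 min, so its libraries overlapped. PTMA (log2 fold change -0.14), PTMAP2 (-0.36) and PTMAP5 (-0.53) overlapped as well. Among relatives of the parents, HNRNPA1, another hnRNP A/B protein, fell (-0.30, SE 0.0965, edgeR adjusted p = 0.0345), and PTMS, which encodes the related acidic protein parathymosin, rose (0.79, SE 0.233, edgeR adjusted p = 0.0387).

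When the inhibitor was given together with Dex for 3 h, no member passed the test. Against Dex 3 h alone, GSK591 gave 0 calls among the 5 genes by edgeR and by DESeq2, with 0 at an unadjusted p below 0.05, in a comparison that called 0% of all genes (1306 genes at an unadjusted p below 0.05). MS023 gave 0 calls of 5 where 0.196% of all genes were called, and 3 of the 5 had an unadjusted p below 0.05, as did 14.1% of all genes. The MS023 with Dex libraries differed from each other for every member. PTMA was at 87.0 and 150 CPM in replicates 1 and 2, PTMAP2 at 3.83 and 27.7, and PTMAP5 at 8.09 and 37.2. HNRNPA3 was at 31.2 and 54.8 CPM and HNRNPA3P5 at 6.12 and 15.9. Replicate 2 was higher throughout, and it is also the library with the highest share of other processed pseudogenes (2.00% against 1.22% in replicate 1). The log2 fold changes were 0.71 (PTMA), 0.70 (PTMAP2), 0.79 (PTMAP5), 0.55 (HNRNPA3) and 1.07 (HNRNPA3P5). With that share as a covariate, a fit added after the data were seen, they were 0.25, -1.44, -0.98, -0.05 and -0.35, and edgeR again called 0 of the 5 genes and 1 of all 22919. Without replicate 1, edgeR called all 5 genes higher, with log2 fold changes from 0.88 (HNRNPA3) to 1.57 (HNRNPA3P5), in a fit that called 7.18% of all genes higher against 0.135% with both libraries, while DESeq2 with both libraries called 1, PTMA (0.74, adjusted p = 0.0351).

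The libraries given Dex after 7 days of inhibitor allowed a test that had no part in the choice of the copies. After GSK591 and Dex 15 min, PTMA was at 43.3 and 43.9 CPM, against 67.8 and 91.2 with Dex 15 min alone. PTMAP5 was at 3.96 and 6.64 CPM against 13.7 and 24.4, and PTMAP2 at 3.01 and 3.95 against 10.3 and 15.0. These 3 genes did not overlap between the groups, and neither did HNRNPA3 (30.3 and 39.5 against 39.6 and 46.8), while 27.7% of all genes were likewise lower in both treated libraries than in both others. PTMA fell (log2 fold change -0.87, SE 0.207, edgeR adjusted p = 0.00793) and so did PTMAP5 (-1.80, SE 0.585, edgeR adjusted p = 0.0491), so that 2 of 5 genes were called lower, beside 8.58% of all genes and 2.61% of processed pseudogenes. PTMAP2 (-1.83, SE 0.654, edgeR adjusted p = 0.0728) did not pass, while DESeq2 gave it an adjusted p of 0.048. HNRNPA3 (-0.30, SE 0.197) and HNRNPA3P5 (-0.17, SE 0.445) did not pass either, and HNRNPA3P5 was at 6.15 and 12.2 CPM against 6.42 and 14.8, nearly the same range. Fits without 1 library, given here and below, leave 1 library in a group. In the comparisons with 7 days of inhibitor they all called a smaller share of all genes than the full fit. The call of PTMA was lost without GSK591 replicate 2 (-0.88, edgeR adjusted p = 0.0743) or Dex 15 min replicate 2 (-0.64, 0.0930), and that of PTMAP5 without any 1 of the 4 libraries (-2.27 to -1.34, edgeR adjusted p from 0.0538 to 0.297).

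With Dex for 3 h after GSK591 the same genes were called. PTMA was at 44.0 and 36.8 CPM against 66.3 and 78.4 with Dex 3 h alone, and PTMAP5 at 1.65 and 3.32 against 10.3 and 16.2. PTMA fell by 0.84 on the log2 scale (SE 0.209, edgeR adjusted p = 0.0116) and PTMAP5 fell by 2.41 (SE 0.700, edgeR adjusted p = 0.0315), 2 of 5 genes beside 7.36% of all genes and 2.61% of processed pseudogenes lower. PTMAP2 (1.76 and 2.18 CPM against 7.97 and 11.8) was lower by a similar size without passing (-2.32, SE 0.753, edgeR adjusted p = 0.0542, against 0.0118 by DESeq2). HNRNPA3 was at 19.3 and 19.4 CPM against 33.7 and 25.0 (-0.61, SE 0.215, edgeR adjusted p = 0.0691) and HNRNPA3P5 at 1.88 and 2.87 against 6.70 and 3.79 (-1.16, SE 0.614, edgeR adjusted p = 0.246). All 5 genes were thus lower in both treated libraries than in both Dex libraries, as were 26.3% of all genes, and PTMAP2 and PTMAP5 had the lowest values of the 5. The calls of both PTMA and PTMAP5 were lost without Dex 3 h replicate 2 (-0.72 and -2.06) and without GSK591 replicate 2 (-0.72 and -2.99), and that of PTMAP5 also without GSK591 replicate 1 (-1.99), whereas HNRNPA3 passed without Dex 3 h replicate 2 (-0.81, edgeR adjusted p = 0.0394).

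After MS023 and Dex 15 min all 5 genes were lower than with Dex 15 min alone. PTMAP2 was at 0.995 and 1.42 CPM against 10.3 and 15.0, PTMAP5 at 1.84 and 2.41 against 13.7 and 24.4, and HNRNPA3P5 at 1.68 and 2.66 against 6.42 and 14.8. PTMA was at 41.6 and 48.4 CPM against 67.8 and 91.2, and HNRNPA3 at 23.3 and 25.2 against 39.6 and 46.8. None of the 5 overlapped between the groups, where 29.1% of all genes were lower without overlap, and 5 of 5 were called lower, beside 7.75% of all genes and 5.57% of processed pseudogenes. The log2 fold changes of the copies were -3.39 (PTMAP2, SE 0.736, edgeR adjusted p = 0.0055), -3.16 (PTMAP5, SE 0.641, edgeR adjusted p = 0.00339) and -2.29 (HNRNPA3P5, SE 0.524, edgeR adjusted p = 0.00769). Those of the parents were -0.82 (PTMA, SE 0.202, edgeR adjusted p = 0.0107) and -0.83 (HNRNPA3, SE 0.198, edgeR adjusted p = 0.00695). All 5 calls were lost without MS023 replicate 1, where the copies still had -3.13, -2.96 and -1.97 and the parents -0.70 and -0.76. Without Dex 15 min replicate 2, which has the second highest share of other processed pseudogenes, 1 call was left, PTMAP5, and HNRNPA3P5 stood at -1.57.

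With Dex for 3 h after MS023, PTMAP2 and PTMAP5 fell, and the other members did not pass. PTMAP2 was at 2.12 and 0.590 CPM against 7.97 and 11.8 with Dex 3 h alone, and PTMAP5 at 2.64 and 1.25 against 10.3 and 16.2. Their log2 fold changes were -2.85 (SE 0.736, adjusted p = 0.0197, edgeR quasi-likelihood test) and -2.75 (SE 0.670, adjusted p = 0.0142), so that 2 of 5 genes were called lower, beside 6.11% of all genes and 1.92% of processed pseudogenes. HNRNPA3P5 was at 2.27 and 1.55 CPM against 6.70 and 3.79, below both Dex libraries without passing (-1.47, SE 0.587, edgeR adjusted p = 0.127, against 0.0291 by DESeq2). In this comparison 26.7% of all genes were lower in both treated libraries than in both Dex libraries. PTMA had -0.50 (SE 0.202, edgeR adjusted p = 0.130) and HNRNPA3 -0.28 (SE 0.203, edgeR adjusted p = 0.442), and scaling by total counts turned these to 0.34 and 0.59 while moving the all-gene median to 0.85. Both calls were lost without Dex 3 h replicate 2 (-2.54 and -2.40, edgeR adjusted p = 0.133 and 0.116) and without MS023 replicate 2 (-2.20 and -2.31, edgeR adjusted p = 0.173 and 0.134).

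**Figure D2:**
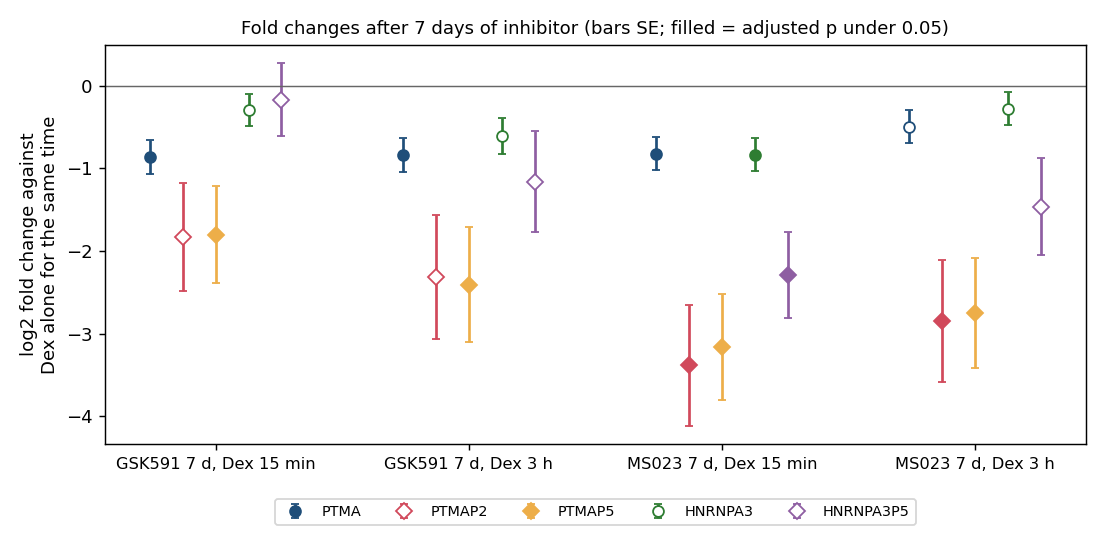
Log2 fold changes with their standard errors (edgeR) for 7 days of inhibitor followed by Dex against Dex alone for the same time, with circles for parents, diamonds for copies and filled symbols where the adjusted p is under 0.05. PTMAP2 and PTMAP5 lie between -3.39 and -1.80 in all 4 comparisons, while PTMA lies between -0.87 and -0.50. The latter turned to 0.34 when scaled by total counts, which moved the all-gene median to 0.85.

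Counts of copy and parent in the same library give a ratio that no scaling between libraries can move. For every 100 counts of PTMA there were 15.1 and 16.4 counts of PTMAP2 with Dex 15 min and 12.0 and 15.1 with Dex 3 h. After 7 days of GSK591 and then Dex these became 6.94 and 8.99 (15 min) and 4.01 and 5.92 (3 h), and after MS023 2.39 and 2.92 (15 min) and 4.43 and 1.08 (3 h). All 8 libraries with 7 days of an inhibitor lay below the 4 with Dex alone. For all copy-parent pairs the share separated likewise was not computed, here or for the ratios below. When the inhibitor was given only with Dex for 3 h, the figures were 11.2 and 7.68 with GSK591, also below those 4, and 4.40 and 18.5 with MS023, on either side of them. The mean log2 ratio was lower by 1.21 on the log2 scale after GSK591, from -2.77 ± 0.193 to -3.98 ± 0.477 (SD, n = 4 each), and by 2.56 after MS023, where it was -5.33 ± 0.827 (SD, n = 4). Each had p = 0.0286 in a two-sided exact permutation test over the samples, the smallest that 4 against 4 libraries can give, and p = 0.0343 after Benjamini-Hochberg adjustment over 6 ratio tests.

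PTMAP5 showed the same order. It had 20.2 and 26.8 counts per 100 of PTMA with Dex 15 min and 15.5 and 20.7 with Dex 3 h. After GSK591 the values were 9.15 and 15.1 (15 min) and 3.76 and 9.03 (3 h), and after MS023 4.42 and 4.98 (15 min) and 5.50 and 2.30 (3 h). Given only with Dex for 3 h, GSK591 had 12.6 and 10.1 and MS023 9.30 and 24.8. The highest library with 7 days of GSK591, at 15.1, came close to the lowest Dex library, at 15.5. The mean log2 ratio differed by -1.28 after GSK591 and -2.30 after MS023, each with p = 0.0286 in the exact permutation test (adjusted p = 0.0343). For both copies of PTMA the calls after GSK591 rest on complete separation of the libraries. Without any 1 of Dex 15 min replicate 1, Dex 15 min replicate 2 or Dex 3 h replicate 2, the adjusted p of the exact permutation test was 0.0686 for PTMAP2 (differences of -1.19, -1.15 and -1.19) and for PTMAP5 (-1.29, -1.15 and -1.28), and for PTMAP5 it was the same without Dex 3 h replicate 1 (-1.41) or GSK591 then Dex 3 h replicate 1 (-0.91).

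HNRNPA3P5 was lower beside its parent after MS023, and whether this ratio differed between the inhibitors was not tested. For every 100 counts of HNRNPA3 it had 16.2 and 31.6 counts with Dex 15 min and 19.9 and 15.1 with Dex 3 h. After GSK591 it had 20.3 and 30.9 (15 min) and 9.71 and 14.8 (3 h), which overlap the Dex libraries. After MS023 it had 7.24 and 10.6 (15 min) and 8.66 and 6.91 (3 h), all below the lowest Dex library. Given only with Dex for 3 h, GSK591 had 23.3 and 21.3 and MS023 19.6 and 29.1. The mean log2 ratio differed by -1.25 after MS023 (exact permutation test, p = 0.0286, adjusted p = 0.0343) and by -0.18 after GSK591 (p = 0.629 in the same exact test). With the exact permutation kept within each Dex time, the 5 ratios that passed had an adjusted p of 0.0667, in a design too small for any of them to pass.

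**Figure D3:**
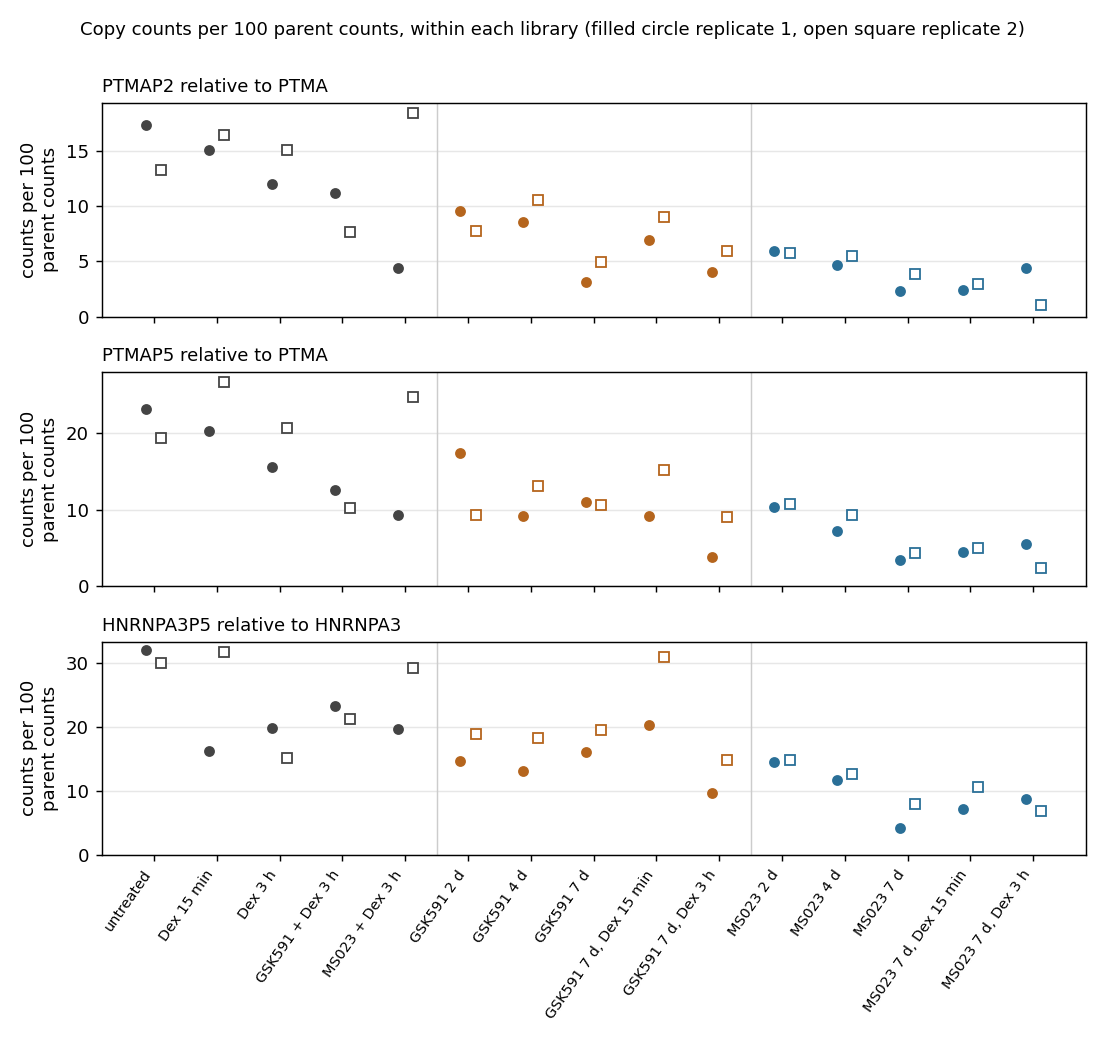
Counts of each copy per 100 counts of its parent in the same library (linear axis from 0), by group, with filled circles for replicate 1 and open squares for replicate 2. For PTMAP2 and PTMAP5 the libraries with 7 days of inhibitor lie below those with Dex alone, while HNRNPA3P5 after GSK591 then Dex 15 min (20.3 and 30.9) lies in the range of Dex alone. How many other copy-parent pairs are separated likewise was not computed.

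The inhibitors were also compared directly after 7 days and Dex. With Dex 15 min, HNRNPA3P5 was at 6.15 and 12.2 CPM with GSK591 and at 1.68 and 2.66 with MS023, and was higher with GSK591 by 2.12 on the log2 scale (SE 0.537, adjusted p = 0.0133, edgeR quasi-likelihood test). It was the only one of the 5 genes called, in a comparison where 7.56% of all genes were called higher. PTMAP2 (1.55, SE 0.900, edgeR adjusted p = 0.280) and PTMAP5 (1.36, SE 0.759, edgeR adjusted p = 0.260) were higher in both GSK591 libraries than in both MS023 libraries without passing. The share of all genes separated likewise was not computed for this comparison. With Dex 3 h, 0 of the 5 genes were called by edgeR or DESeq2, and 0 had an unadjusted p below 0.05, beside 11.1% of all genes in either direction. HNRNPA3P5 then had a difference of 0.30 (SE 0.681, edgeR adjusted p = 0.842), with libraries that overlapped. The call for HNRNPA3P5 was lost without GSK591 replicate 2 (1.51, edgeR adjusted p = 0.244), MS023 replicate 1 (1.83, 0.112) or MS023 replicate 2 (2.51, 0.0505), and GSK591 replicate 2 is the library with the third highest share of other processed pseudogenes. Scaling by total counts gave 1.34 (adjusted p = 0.0601), and the median of all genes moved to -0.88.

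Between 2 and 4 days of one inhibitor 0 of the 5 genes were called by edgeR or by DESeq2, beside 3.39% of all genes with GSK591 and 4.91% with MS023. PTMA had the only unadjusted p below 0.05 in each. It was at 70.2 and 66.4 CPM at 2 days and 47.2 and 53.0 at 4 days of GSK591 (-0.45, SE 0.206, edgeR adjusted p = 0.313), and at 93.3 and 102 then 58.8 and 74.0 with MS023 (-0.56, SE 0.197, edgeR adjusted p = 0.122). The libraries did not overlap in either, and the share of all genes without overlap was not computed for these days. HNRNPA1 fell between these days with GSK591 (-0.52, SE 0.10, edgeR adjusted p = 0.000809) and MS023 (-0.38, SE 0.0961, edgeR adjusted p = 0.0133).

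The other family members place the 3 copies among their relatives. There are 20 further pseudogenes with these names, 9 of which passed the filter, all of them HNRNPA3 copies, while 10 had a median below 1 count, among them PTMAP6 with 0 in every library. HNRNPA3P2 is annotated as an unprocessed pseudogene and the other tested ones as processed. HNRNPA3P6 is the one with the highest level, at 2.30 to 24.9 CPM with a median of 6.78. It aligns to HNRNPA3 at 94.53%, with 4 substitutions, 54 gap columns and an identical run of 519 bases, and 76.59% of its 50-base stretches occur in the parent. After MS023 and Dex 15 min it fell by 2.29 on the log2 scale (SE 0.496, adjusted p = 0.00526, edgeR quasi-likelihood test), close to HNRNPA3P5. HNRNPA3P1 (-2.07, edgeR adjusted p = 0.0162) and HNRNPA3P10 (-1.65, edgeR adjusted p = 0.0212) fell as well in that comparison, so that 4 of the 10 tested HNRNPA3 copies passed, where 7.75% of all genes and 5.57% of processed pseudogenes were called lower. In the other 3 comparisons with 7 days of inhibitor 0 of these 10 copies passed by edgeR, beside 2.61%, 2.61% and 1.92% of processed pseudogenes called lower (GSK591 with Dex 15 min and 3 h, MS023 with Dex 3 h). There HNRNPA3P6 had 0.06 and -1.33 with GSK591 (Dex 15 min and 3 h) and -1.58 with MS023 and Dex 3 h.

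Across the 12 tested copies, those with a higher identity to their parent mostly had lower values. After MS023 and Dex 15 min the 8 copies with at least 90% identity had a median log2 fold change of -2.18, and the 4 below 90% a median of 0.40. With Dex 3 h they were -1.35 and 0.41. With GSK591 the medians were -0.24 and 0.45 (Dex 15 min) and -1.33 and 0.11 (Dex 3 h). Spearman's rho of identity with fold change was -0.846 and -0.706 with MS023 and -0.895 and -0.713 with GSK591, over 12 copies that share libraries and 2 parents, and the bound of 90% was set after the values were seen. The 3 copies chosen for their falls are the 3 with the highest identity. Over the 10 HNRNPA3 copies alone rho was -0.733 and -0.491 with MS023 and -0.818 and -0.515 with GSK591. These 10 still hold HNRNPA3P5, chosen for its fall and the highest of them in identity, so they are not free of that choice. By the share of 50-base stretches found in the parent, rho over the 12 copies was -0.859 and -0.796 with MS023. With GSK591 it was -0.57 and -0.768 by that share. HNRNPA3P6 had the highest such share (76.59%) but 94.53% identity, in which 54 gap columns count as differences beside 4 substitutions. Its change was 0.06 with GSK591 and Dex 15 min. HNRNPA3P12 goes the other way, with 94.96% identity and changes of -0.16 and 0.64 with MS023, at 1 to 17 counts per library.

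**Figure D4:**
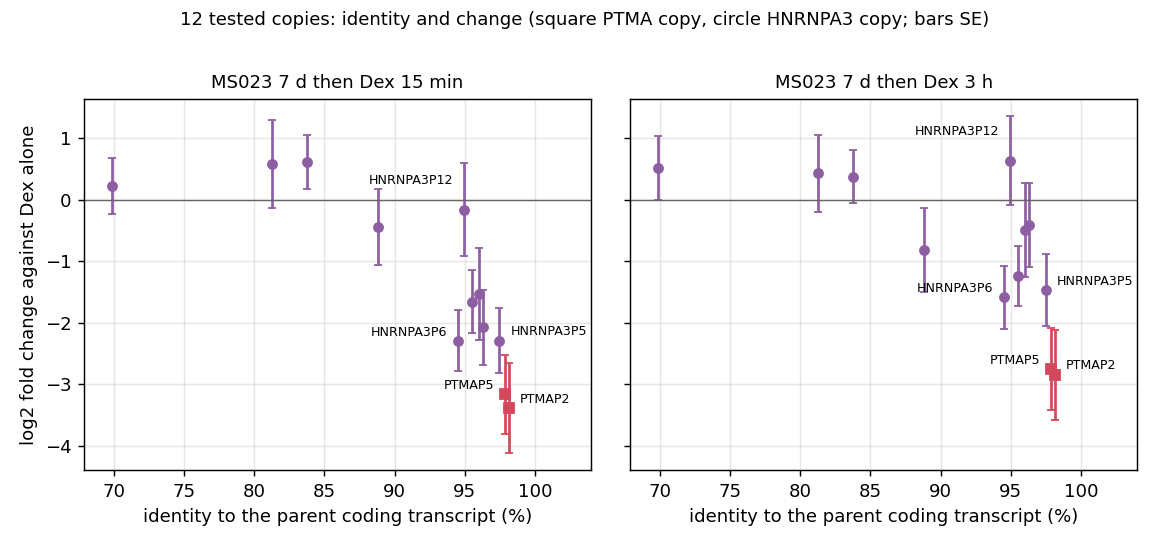
Log2 fold change (edgeR, bars SE) of the 12 tested copies after MS023 and Dex against Dex alone, plotted against their identity to the parent's coding transcript, with squares for PTMA copies and circles for HNRNPA3 copies. The 4 copies below 90% identity have a median of 0.40 at Dex 15 min, with HNRNPA3P11 lowest among them (-0.45), and PTMAP2 is the lowest of all 12 (-3.39 and -2.85).

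A wider set of copies served as background. It held 1054 pairs of a tested processed pseudogene and its tested protein-coding parent, with 555 parents, joined by gene symbol. PTMAP2, PTMAP5 and HNRNPA3P5 were chosen for falls after 7 days of inhibitor, and the other pairs were not. Low ranks after the same treatment can therefore follow from that choice. After MS023 and Dex 3 h the fold change of the copy minus that of the parent had a median of -0.02 on the log2 scale, with 5% of pairs below -1.42. PTMAP2 (-2.35) and PTMAP5 (-2.26) stood at ranks 8 and 10 from the lowest, and HNRNPA3P5 (-1.19) stood at rank 84. Among the 46 pairs whose copy had at least 5 CPM, the largest falls were those of PTMAP2, PTMAP5 and HNRNPA3P6 (-1.31). The largest rises were those of RHEBP2 (1.09), TPM3P9 (0.98) and SDAD1P1 (0.82). With Dex 15 min after MS023 the median of all pairs was -0.26 and the ranks were 28, 39 and 164. With GSK591 the medians were 0.13 at both Dex times, with ranks of 80, 84 and 530 at 15 min and 42, 33 and 217 at 3 h. HNRNPA3P5 with GSK591 and Dex 15 min thus lay near the middle of all pairs.

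**Figure D5:**
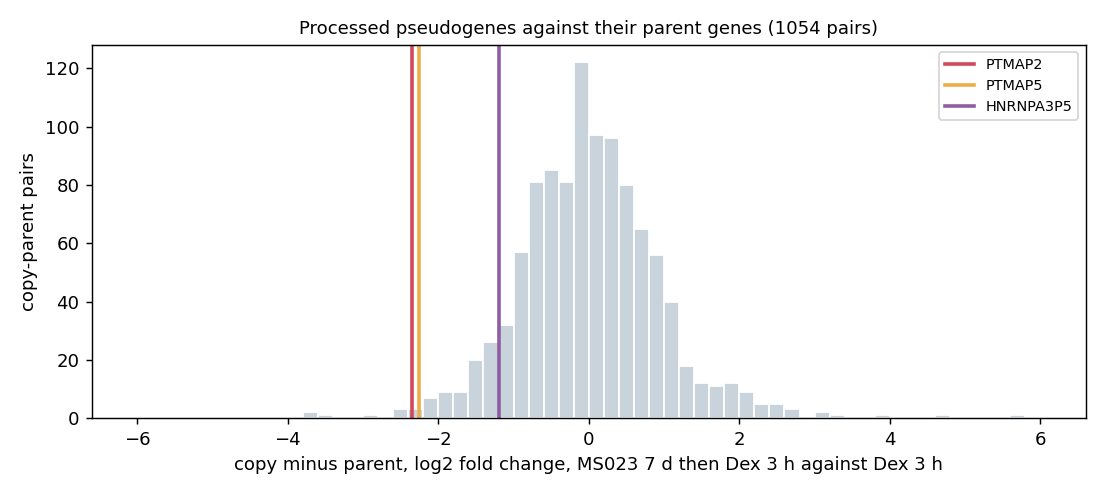
Histogram of 1054 copy-parent pairs by the log2 fold change of the copy minus that of the parent, for MS023 then Dex 3 h against Dex 3 h. The vertical lines mark PTMAP2 (-2.35), PTMAP5 (-2.26) and HNRNPA3P5 (-1.19), all left of the median of -0.02. These copies, unlike the other pairs, were chosen for falls after 7 days of inhibitor.

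Processed pseudogenes as a class are given beside the copies as a description. Outside these families their share of nuclear counts averaged 1.24% in untreated cells, 1.19% at 7 days of GSK591 and 1.23% at 7 days of MS023. With MS023 given together with Dex for 3 h it was 1.22% in replicate 1 and 2.00% in replicate 2. Against untreated cells the medians of their log2 fold changes were -0.21 and -0.20 at 7 days of GSK591 and MS023 and -0.26 at 4 days of GSK591. The median was 0.33 with MS023 and Dex 3 h, the group that holds this replicate 2. The medians of the 1722 tested processed pseudogenes against Dex alone were -0.25 and -0.07 after MS023 with Dex 15 min and 3 h, and -0.11 in both comparisons with GSK591. The values of the 3 copies lay between -3.39 and -0.17 in these 4 comparisons. The highest of them, that of HNRNPA3P5 after GSK591 and Dex 15 min, was near the class median of -0.11. Because the copies were chosen for falls after 7 days of inhibitor, values below the class median can follow from that choice.

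The family relatives gave mixed directions. After GSK591 and Dex 3 h, HNRNPA1 (-0.49, SE 0.0994), HNRNPA0 (-0.42, SE 0.112) and HNRNPAB (-0.71, SE 0.146) fell, with edgeR adjusted p = 0.000344, 0.00669 and 0.000935. With Dex 15 min after MS023, HNRNPA2B1 fell by 1.10 on the log2 scale (SE 0.275, edgeR adjusted p = 0.0135) while HNRNPA0 rose by 0.34 (SE 0.106, edgeR adjusted p = 0.0233). HNRNPA2B1, the closest relative by its pattern, was at a mean of 143 CPM there, against 306 with Dex 15 min alone. PTMS did not pass in any of the 4 comparisons with 7 days of inhibitor, with values from -0.49 to 0.06.

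Likeness of pattern was measured by Pearson's r of log2 CPM over the 30 libraries among 11117 genes with at least 5 CPM, as a description. Over the same libraries PTMAP2 was most like PTMAP5 (r = 0.963), ahead of FBL, the rRNA methyltransferase fibrillarin (0.928), and ANP32B, an acidic nuclear protein (0.927). PTMA itself correlated with these copies at 0.79 and 0.799 and was most like HDGF (0.916), the replication helicase subunit MCM3 (0.91) and the chromatin protein HMGB2 (0.905). PTMAP5 was most like PTMAP2, FBL (0.95) and the glycolytic enzyme gene PKM (0.948). HNRNPA3 was most like HNRNPA2B1 (0.965), the nucleolar protein gene NCL (0.954) and HNRNPD (0.944). Among the genes most like HNRNPA3P5 were the RNA-binding protein genes HNRNPA2B1 (0.943) and HNRNPM (0.941), and its correlation with HNRNPA3 was 0.906. All of these values share depth, treatment groups and, between copies and parents, sequence.

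A microRNA is annotated inside PTMA. The mature sequence of miR-1244 (RefSeq, GRCh38.p14) is shown with its seed, bases 2 to 8, in capitals because it also occurs in a PTMA transcript and at other loci, one of them on chromosome 5 (118974640 to 118974665, plus strand) downstream of PTMAP2.
hsa-miR-1244: aAGUAGUUgguuuguaugagaugguu

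The microRNA genes carried few counts. MIR1244-1, inside PTMA, had 0 counts in all 30 libraries, and MIR1244-2, MIR1244-3 and MIR1244-4 had 85, 24 and 35 counts in total, each with its highest count in MS023 with Dex replicate 2. MIR1244-1 overlaps exonic bases of PTMA on the same strand. How reads shared by overlapping genes were counted is not given in the sources used here. The 0 of MIR1244-1 therefore cannot be read as a lack of transcription.

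The authors' deposited tables compare each of 14 treatments with untreated cells, and how their reads were counted is not given in the sources used here. In the authors' deposited table the mean of PTMAP2 was 11.1, where the mean of the count table was 58.8, which is 18.8 per 100. The same figure was 43.1 for PTMAP5 and 56.9 for HNRNPA3P5, but 115 for PTMA and 111 for HNRNPA3. Over 13487 genes with a mean count of at least 10 the median was 136 per 100, and over 284 processed pseudogenes among them 35.2. The base means of the copies were thus lower beside the count table than those of the parents. The authors' deposited tables list HNRNPA3 and HNRNPA3P5 with negative log2 fold changes in 14 of 14 comparisons, PTMAP2 in 13 and PTMAP5 in 12, and PTMA in 8. In the 10 of these comparisons also fitted here, the sign in the authors' deposited table was opposite for PTMA in 4 (Dex 15 min, Dex 3 h, 2 days of GSK591 and 4 days of MS023) and for PTMAP2 in 1 (Dex 15 min), and the same throughout for the other 3 genes. Signs were counted also where the authors' value was near 0, as with Dex 15 min for PTMA (-0.009) and PTMAP2 (-0.005). At 7 days of MS023 the authors' deposited table gives -3.16 for HNRNPA3P5, -3.53 for PTMAP5 and -2.63 for PTMAP2, with -0.59 for HNRNPA3 and -0.25 for PTMA. At 7 days of GSK591 the authors' deposited table gives -2.20 for PTMAP5, -1.66 for HNRNPA3P5 and -0.38 for PTMAP2 (adjusted p = 0.0908), so the fall of PTMAP2 with GSK591 in the count table was not called there. That value of PTMAP2 has a standard error of 0.63, and its unadjusted p-value is smaller than this ratio would give. The authors' fold changes may thus be on another scale, so their sizes cannot be set directly against those fitted here.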

How the data were processed

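The authors deposited a table of read counts per gene for all 30 libraries, made with featureCounts 2.0.1 on hg38 per the submitters' processing notes. Read length, strand use and the handling of reads with several positions are not given in the sources used here. The authors' deposited tables of 14 comparisons give a base mean (a signal averaged over libraries), log2 fold changes and p-values per gene, per the file headers. All 58780 identifiers matched GENCODE 29, and 36049 genes are named in the table itself.

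Counts were fitted with edgeR 4.0.16 (R 4.3.3, TMM scaling, robust quasi-likelihood, filterByExpr with a minimum count of 10 and a total of 15), with 15 group means and 15 residual degrees of freedom. P-values were adjusted by Benjamini-Hochberg over 22919 genes, with a threshold of 0.05. Ratios of copy to parent used 0.5 added to each count and two-sided exact permutation tests over samples. The genes named are the 5 members, other PTMA and HNRNPA3 pseudogenes, 5 relatives (PTMS, HNRNPA0, HNRNPA1, HNRNPA2B1, HNRNPAB), the 3 genes most like each member (1 of them is not reported here), and the 3 largest falls and rises among copy-parent pairs. The members and lists were chosen with earlier results of these data known. The fit was tested on simulated data for MS023 then Dex 3 h against Dex 3 h. It called 5.71%, 38.2% and 78.7% of the genes given absolute log2 changes of 0.5, 1 and 2, so small changes were mostly missed. Alternatives were DESeq2 1.42.0, other scalings and filters, a replicate block, the compared groups alone, fits without 1 library, and, added after the data were seen, the share of other processed pseudogenes as a covariate.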

Additional observations from a re-analysis of the deposited data

Results flagged for a closer look

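After 7 days of inhibitor and Dex 15 min, HNRNPA3P5 was higher with GSK591 than with MS023 by 2.12 on the log2 scale (SE 0.537, edgeR adjusted p = 0.0133), at 6.15 and 12.2 CPM against 1.68 and 2.66. Both GSK591 libraries lay above both MS023 libraries, and the share of all genes separated likewise was not computed. The share of other processed pseudogenes was 1.18% and 1.41% in the GSK591 libraries and 1.33% and 1.22% in the MS023 libraries, and with this share as a covariate, a fit added after the data were seen, the difference was 2.02 (edgeR adjusted p = 3.08e-09). In that fit PTMAP2 (1.41), PTMAP5 (1.24) and HNRNPA3 (0.50) were called as well, with 10.2% of all genes called higher against 7.56% without the covariate. With Dex 3 h the difference was 0.30 (SE 0.681), and whether it differed between the Dex times was not tested.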

How the results depend on the processing

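The number of the 5 genes called moved by over 1.5 times in these settings, beside which the share of all genes called in either direction is given in the same order. With no filter on low counts it went from 0 to 1 for Dex 3 h against 15 min and for 4 against 2 days of each inhibitor, from 0 to 2 for MS023 with Dex, from 2 to 1 for GSK591 then Dex 15 min, and from 1 to 2 for GSK591 against MS023 at Dex 15 min (all genes 4.03%, 1.36%, 1.83%, 0.957%, 6.03% and 6.01%). With the compared groups alone these were 1 (Dex), 5 (GSK591 then Dex 3 h), 4 (MS023 then Dex 3 h), 1 and 3 (4 against 2 days of GSK591 and MS023) and 4 (GSK591 against MS023, Dex 15 min), where 10.9%, 14%, 13.1%, 8.46%, 13% and 13% of the genes tested there were called, against 10.8%, 13.6%, 11.5%, 3.39%, 4.91% and 15.6% otherwise. The pseudogene share as a covariate, added after the data were seen, gave 5, 5, 1, 3 and 4 for the last 5 of these (all genes 17.2%, 14.9%, 5%, 8.32% and 20.2%). Total counts as the scaling gave 0 (GSK591 then Dex 3 h), 3 (MS023 then Dex 15 min) and 2 (GSK591 against MS023, Dex 3 h) where it called 4.9%, 28.8% and 55.6% of all genes. It also turned HNRNPA3 after MS023 then Dex 3 h from -0.28 to 0.59 (edgeR adjusted p = 0.0466). In that comparison this scaling called 57.1% of all genes higher and moved their median to 0.85. DESeq2 size factors gave 1 for GSK591 then Dex 15 min, and DESeq2 gave 1 for MS023 with Dex (all genes 15.2% and 0.236%). The causes were not tested. Replicate numbers did not pair the samples (median correlation of deviations 0.0222 over 105 group pairs, 21 above 0.1), and the replicate block moved the count from 0 to 1 for MS023 with Dex and for 4 against 2 days of MS023 (all genes 0.497% and 5.28%), and passed PTMAP2 after GSK591 then Dex 3 h (edgeR adjusted p = 0.0434) and PTMA after MS023 then Dex 3 h (0.0192). Calls also moved in fits without 1 library, which leave 1 library in a group, and for MS023 with Dex they depended on the library left out. In the comparisons with 7 days of inhibitor all these fits also called a smaller share of all genes than the full fit. The ratios kept their direction in every setting that changed their call: permuted within Dex time they were -1.21, -2.56, -1.28, -2.30 and -1.25 (PTMAP2 and PTMAP5 with GSK591 then MS023 each, HNRNPA3P5 with MS023; adjusted p = 0.0667), with Dex 15 min alone -0.98, -2.54, -0.97, -2.29 and -1.35, and with Dex 3 h alone -1.44, -2.58, -1.59, -2.31 and -1.15, where 2 against 2 libraries cannot pass an exact permutation test. Without 1 library they ran from -1.38 to -1.0, -2.84 to -2.18, -1.57 to -0.91, -2.44 to -2.03 and -1.38 to -1.03, and HNRNPA3P5 with GSK591 from -0.46 to 0.09. Depth limits the copies most, PTMAP2 having as few as 8 counts in a library.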
